A study of Drosophila melanogaster with 4 samples.

Results

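The regions described here are stretches of enrichment for JHDM1, called clusters, that lie near the centromeres on the 5 large chromosome arms of Drosophila melanogaster. They were picked by a rule that uses position alone, set with earlier results of these data known. A cluster was a member if it lay wholly within the proximal part of its arm, which on 2L began at 21 Mb, on 3L at 22.5 Mb and on X just past 20 Mb, and which on 2R and 3R covered the first 2 Mb. On 2L, 3L and X the centromere lies beyond the highest coordinate, and on 2R and 3R before the lowest. These 5 windows spanned 2.01, 2.04, 2.42, 2.00 and 2.00 Mb in the order just given, or 10.5 Mb in all. Of the 7836 clusters of ChIP replicate 1, 507 were members, as were 420 of the 7074 of ChIP replicate 2 and 507 of the 8005 of the whole-series list. The rest of the same arms held 6824, 6376 and 7022 clusters.

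The material was nuclei from heads of wild-type Oregon-R adults of mixed age, untreated as far as the labels say, with 2 ChIP samples and 2 input samples. The ChIP samples were precipitated with the antibody Q2634 against JHDM1, and each input sample was the background for the ChIP sample of its own number. Heads hold many cell types, so a cluster is an average over them. Whether the ChIP samples stem from different fly populations is not in the labels, and the replicate spread may be technical.

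JHDM1, known in the fly as Kdm2, is a JmjC-domain protein of the family that removes methyl groups from histone H3. In Drosophila it is known as a subunit of dRAF, a complex with Polycomb group proteins that attaches ubiquitin to histone H2A. Near the centromere, a chromosome arm passes from gene-rich euchromatin into pericentric heterochromatin, which is rich in repeats, is marked by methylation of lysine 9 of histone H3 and is bound by HP1. In the assembled fly genome the change falls inside the arm sequences, while deeper heterochromatin is held on separate scaffolds. Coordinates below are those of FlyBase release 5.

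On 4 of the 5 arms the proximal window held less JHDM1 enrichment than the rest of the arm. On 3L, clusters covered 8.97% of the window in replicate 1 and 6.98% in replicate 2, against 22.3% and 21.4% of the rest of the arm. On X they covered 12.5% and 8.16% of the window, against 22.2% and 14.1% of the rest. These were the emptiest windows, and in each the 2 replicates lay on the same side of the rest of their arm.

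On 2R the window was covered at 15.8% in both replicates, against 25.3% and 25.45% of the rest of the arm. On 2L the values were 16.4% and 15.8% in the window, against 20.4% and 20.98% in the rest. Arm 3R went the other way, with 28.2% and 26.7% of the window covered, against 21.4% and 21.3% of the rest. Expressed as the window over the rest of the arm, the covered share was 0.365 ± 0.054 fold on 3L, 0.572 ± 0.011 on X, 0.621 ± 0.0023 on 2R, 0.777 ± 0.036 on 2L and 1.29 ± 0.045 on 3R (mean ± SD, n = 2 replicates). Each of these differs from 1 by more than the SD between replicates. With 2 ChIP libraries the smallest possible p of an exact two-sided sign-flip test is 0.5, which cannot pass 0.05, and no p-value is given.

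**Figure D1:**
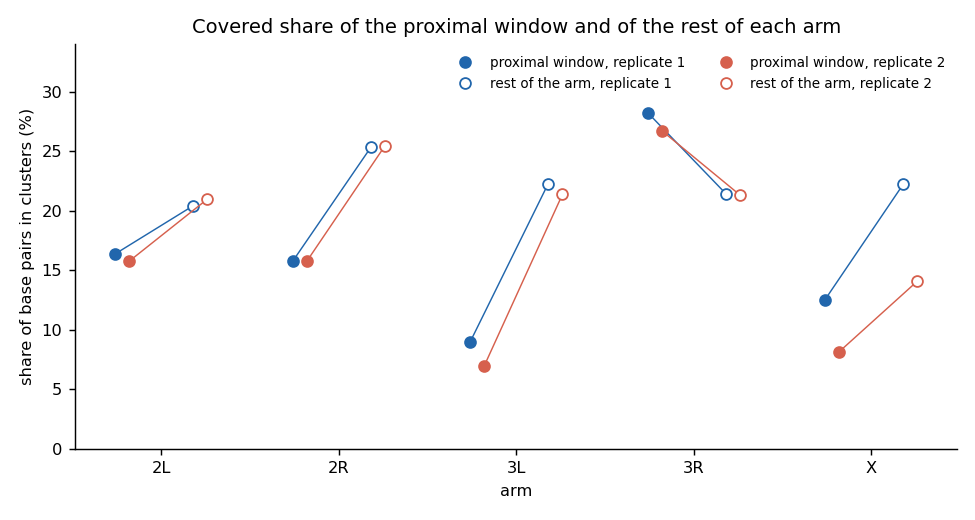
The share of base pairs inside clusters (y axis, %) is drawn for each arm (x axis) in the proximal window (filled points) and in the rest of the arm (open points), with 1 line per ChIP replicate. The filled points lie below the open ones on 2L, 2R, 3L and X in both replicates and above them on 3R.

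Set against other stretches of the same arm, the windows on 3L, X and 2R were the least covered. When each arm was divided into consecutive windows of the length of the proximal one, the proximal window ranked lowest of 12 on 3L, of 9 on X and of 10 on 2R, in both replicates and in the whole-series list. On 3L its 8.97% and 6.98% stood below a lowest value elsewhere of 18.2% and 16.4%. On X the lowest value elsewhere was 16.4% and 10.0%. The 2L window ranked 3 of 11 from the lowest in both replicates, so it was not the emptiest of its arm. On 3R the window ranked 12 of 13 in replicate 1 and 11 of 13 in replicate 2, near the densest of the arm.

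The difference in covered share was mostly one of the number of clusters, not of their size. In replicate 1 there were 33.3 clusters per Mb in the 3L window against 62.8 in the rest of the arm, and in replicate 2 there were 24.0 against 59.8. On X the densities were 38.4 and 27.2 per Mb in the window, against 65.7 and 49.9 in the rest. On 3R the window held 76.0 and 71.0 per Mb, against 59.1 and 58.2. Over the 5 arms together the density of the windows was 0.726 ± 0.062 fold that of the rest (SD, n = 2), while the median length was 1.00 ± 0.034 fold.

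The median member was 2597 bp long in replicate 1 and 2599 bp long in replicate 2, against 2649 and 2528.5 bp in the rest of the arms. On 3L members were shorter on average. They had a mean length of 2697 and 2912 bp, against 3549 and 3571 bp in the rest of 3L, which is 0.788 ± 0.039 fold (SD, n = 2). By the median the 3L ratio was 0.774 in replicate 1 and 0.953 in replicate 2, so the difference was small there in replicate 2. On the other 4 arms the mean length was between 0.964 and 1.03 fold that of the rest, which on 2L, 2R and X was within the SD between replicates. On 3R it was 1.025 ± 0.0024 fold. Long clusters of over 10 kb made up 2.17% of the members in replicate 1 and 4.29% in replicate 2, against 2.87% and 3.61% in the rest. The X window held 0 such clusters among its 93 and 66 members in the replicates, and 2 (2.08%) in the whole-series list. In the rest of X they made up only 2.21% and 1.10% in the replicates and 3.36% in the whole-series list. At shares this low, the 0 does not set the X window apart.

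**Figure D2:**
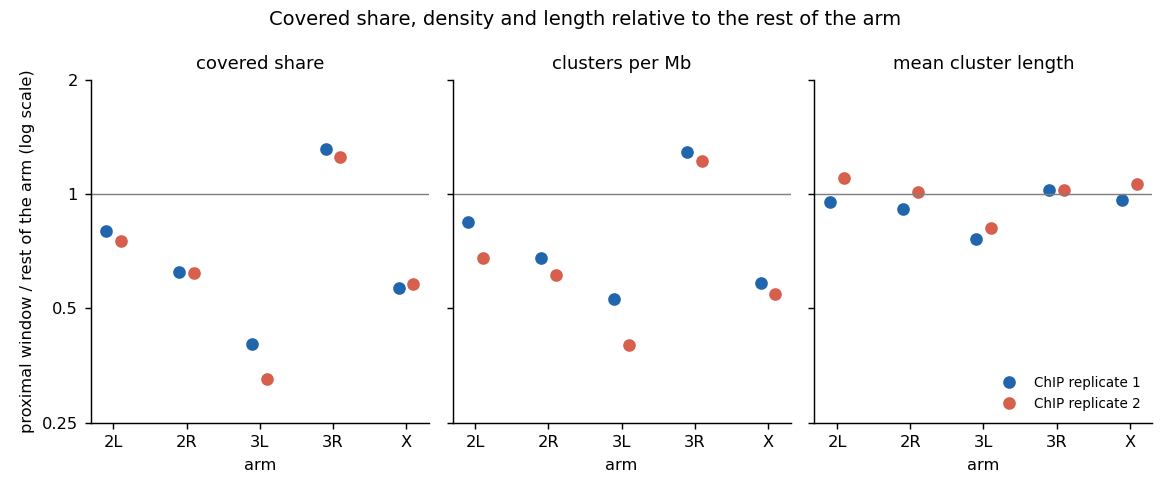
The covered share, the number of clusters per Mb and the mean cluster length of the proximal window are each divided by the value of the rest of the arm (y axis, log scale) for each arm (x axis) and ChIP replicate (colour). Density follows the covered share across arms, from 0.530 and 0.401 fold on 3L to 1.29 and 1.22 fold on 3R (replicates 1 and 2), while the mean length stays near 1 except on 3L.

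Within the windows, clusters did not thin out evenly towards the centromere. They lay in islands between nearly empty stretches. On 2R and 3R, stretches thin in both replicates at once were about as common as in the rest of the arm. The thin stretches of replicate 1 were nearly all thin in replicate 2 as well, while replicate 2 had further ones on 2L, 2R, 3L and X. Covered share was taken over full steps of 100 kb counted from the centromeric end of the assembled arm, of which there were 20 on each autosomal arm and 24 on X. Across these steps the replicates ranked the covered share alike, with a Spearman's rho of 0.86 on 3L, 0.94 on X, 0.89 on 2R, 0.94 on 2L and 0.95 on 3R. In the rest of the arms the same rho was 0.92 to 0.95. Steps of 1 library are not replicates of a condition, so rho carries no p-value here.

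The covered share of a step tended to grow with its distance from the centromeric end on 3L and 2L, while the trends on X and 3R were weak. The size of rho on 3L and 2R depended on the step size, and on 2R it was as small as on X and 3R in the shortest steps. The rho of covered share with distance was 0.55 and 0.51 on 3L in replicates 1 and 2, 0.43 and 0.39 on 2L, and 0.31 and 0.34 on 2R. On X it was 0.16 and 0.07, and on 3R −0.12 and −0.17. In steps of 50 kb the mean rho of the replicates was 0.33 on 3L, 0.37 on 2L, 0.19 on 2R, 0.15 on X and −0.20 on 3R. In steps of 200 kb it was 0.72 on 3L, 0.41 on 2L, 0.52 on 2R, 0.11 on X and −0.27 on 3R. The number of clusters per step gave much the same order, with 0.55 and 0.41 on 3L, 0.45 and 0.42 on 2L, 0.27 and 0.33 on 2R, 0.20 and 0.13 on X and −0.23 and −0.07 on 3R.

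**Figure D3:**
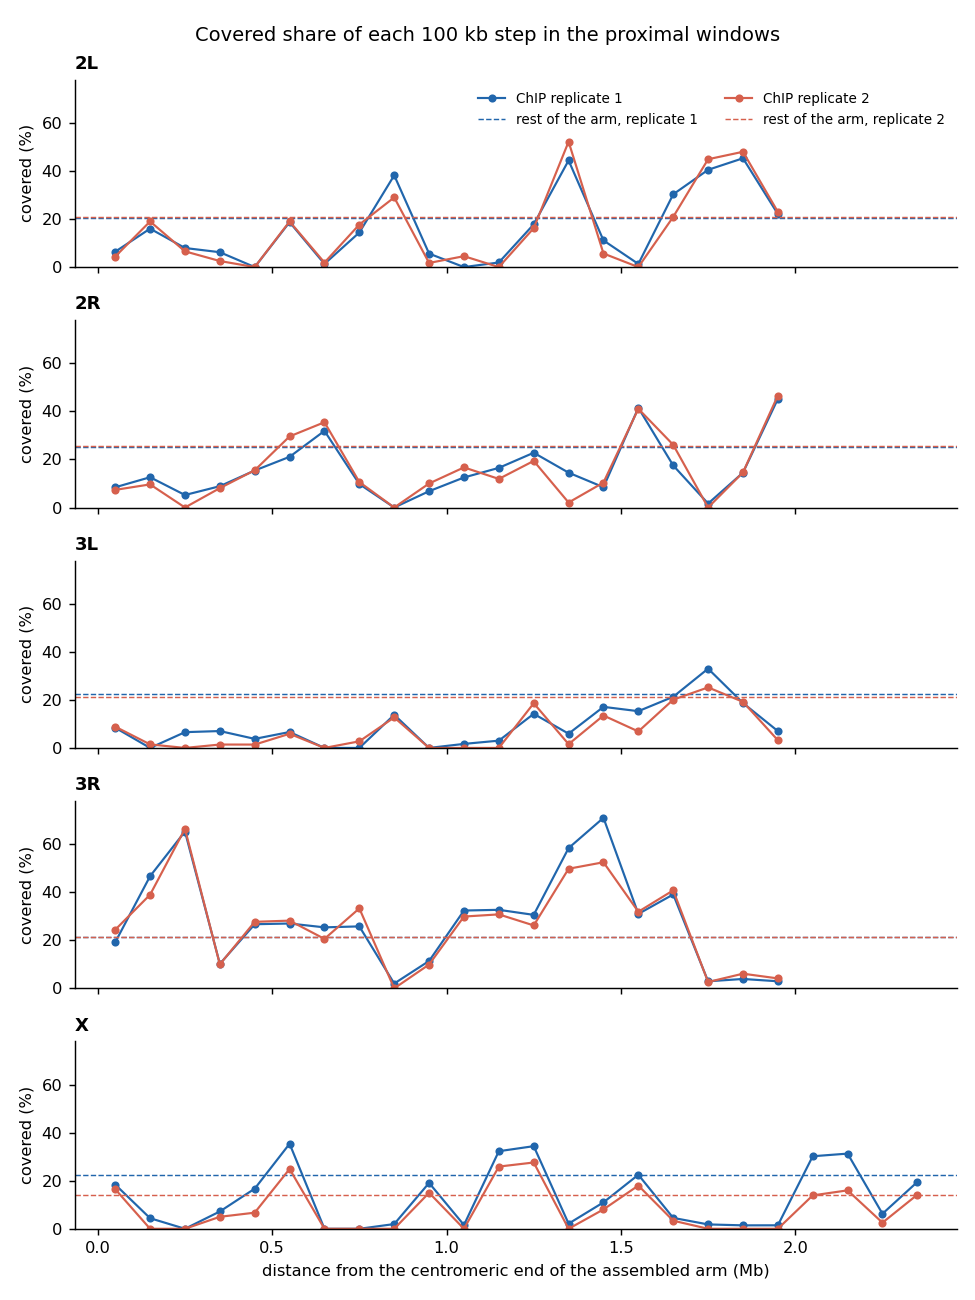
Covered share (y axis, %) of each full 100 kb step is plotted against the distance of the step's centre from the centromeric end of the assembled arm (x axis, Mb), with 1 panel per arm and 1 line per ChIP replicate and dashed lines for the rest of the arm. Both lines rise and fall together, and on 3R steps of 65.3% and 66.4% lie within 300 kb of the end.

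Nearly empty steps, with under 5% covered, were the most common on X and 3L. On X there were 11 in replicate 1 and 13 in replicate 2 out of 24 (45.8% and 54.2%), against 13.5% and 22.5% of the 200 steps in the rest of the arm. On 3L there were 7 and 11 out of 20 (35.0% and 55.0%), against 10.7% and 12.9% of 225. Arm 2L had 5 and 8 of 20, or 25% and 40%, against 15.2% and 16.7% of 210. On 2R the counts were 2 and 4 of 20, or 10.0% and 20.0%, against 9.95% of 191 in both replicates. On 3R they were 4 and 3 of 20, or 20.0% and 15.0%, against 14.7% and 15.8% of 259. In both replicates at once, 11 steps were nearly empty on X, 7 on 3L, 5 on 2L, 3 on 3R and 2 on 2R. These were 45.8% of the steps on X, 35% on 3L and 25% on 2L, against 13.5%, 8.44% and 12.9% in the rest. On 3R and 2R they were 15% and 10%, near the 13.1% and 8.38% of the rest.

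Arm 3L had the longest thin stretch next to the centromere. Its innermost 500 kb was covered at 3.90% ± 1.8 and the next 500 kb at 4.19% ± 0.13 (mean ± SD, n = 2 replicates). From 1000 to 1500 kb the value was 7.55% ± 1.2, and from 1500 to 2000 kb it was 17.0% ± 3.0, still below the rest of the arm. The densest step, from 1700 to 1800 kb, reached 33.0% in replicate 1 and 25.2% in replicate 2, with 10 and 9 clusters. Inside the thin stretch a single step stood out, from 800 to 900 kb, with 13.8% and 12.7% covered by 5 and 3 clusters. The longest cluster-free run of the window was 237.4 kb in replicate 1 (23742918 to 23980306) and 370.5 kb in replicate 2 (23336154 to 23706689).

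At the very end of 3L lay a small group of clusters, set off more clearly in replicate 2 than in replicate 1. The innermost 100 kb was covered at 8.42% and 8.85%, by 4 clusters in each replicate, while the step from 100 to 200 kb was covered at 0% and 1.47%. The 2 steps from 200 to 400 kb were covered at 6.57% and 7.03% in replicate 1, by 4 clusters each. In replicate 2 they were covered at 0% and 1.41%. Of the whole-series members that touched clusters of both replicates, the one nearest the end ran from 24528370 to 24532506, 11.1 kb from the end of the assembled arm, and its score in that list stood at percentile 79.1. In the replicates its best match stood at percentiles 76.0 and 67.3. Beyond it, replicate 2 and the whole-series list each had 1 cluster that ran past the end of the arm and was trimmed to it. The longest member of the arm that touched both was 11.2 kb long, from 22863656 to 22874844, and the one with the highest score ran from 22952254 to 22957012, with percentiles of 97.8 in replicate 1 and 97.1 in replicate 2. Both lay over 1500 kb from the end.

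On X the clusters fell into separate islands along the whole window. In replicate 1 the steps from 500 to 600 kb (35.4%), from 1100 to 1300 kb (32.3% and 34.4%) and from 2000 to 2200 kb (30.2% and 31.3%) were the densest, above the 22.2% of the rest of the arm. In replicate 2 the same steps were covered at 24.9%, 25.9%, 27.6%, 13.9% and 16.0%, against 14.1% of the rest, so the first of the pair from 2000 to 2200 kb was below it there. Between the islands were steps with no covered base in either replicate, from 200 to 300 kb and from 600 to 800 kb. The longest cluster-free run in replicate 1 lay from 21540870 to 21844339 (303.5 kb), and in replicate 2 from 20396361 to 20794816 (398.5 kb).

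The innermost cluster of X reached to within 3.72 kb of the end in replicate 1 and 4.53 kb in replicate 2. In the whole-series list it ran from 22413064 to 22419096, and its percentile was 87.3 there, 89.5 in replicate 1 and 68.0 in replicate 2. The longest shared member, of 14.2 kb from 21226952 to 21241154, and the one with the highest score, from 21149318 to 21153646, both lay in the island between 1100 and 1300 kb. That top member stood at percentiles 98.4 and 98.5 in the replicates. The replicates differed in how much of X was covered, in the window as in the rest. Covered share of the X window in replicate 2 was 0.651 of that in replicate 1, next to 0.634 in the rest of X. The corresponding ratio was 0.778 in the window of 3L and 0.959 in the rest of that arm, 0.963 and 1.03 on 2L, 1.00 and 1.01 on 2R, and 0.946 and 0.994 on 3R.

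On 2R the innermost 500 kb was covered at 9.11% ± 1.4, and the outermost from 1500 to 2000 kb at 24.9% ± 1.1 (SD, n = 2), which is near the rest of the arm. Between them lay 15.5% ± 2.3 and 13.6% ± 2.1, so the rise was not steady. The step from 600 to 700 kb reached 31.9% in replicate 1 and 35.5% in replicate 2, and the step from 800 to 900 kb held no covered base in any list. Members touching both replicates began 17.6 kb from the end, with the one from 17562 to 22470. It stood at percentile 46.7 in replicate 1 and 92.2 in replicate 2, so its rank was not stable between them. The longest was 15.7 kb, from 634828 to 650490, which replicate 1 split into 4 clusters and replicate 2 gave as 1. The highest score fell to the member from 1937298 to 1939792, at percentiles 93.4 and 95.7.

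On 2L the innermost 500 kb was covered at 6.89% ± 0.57, followed outwards by 14.7% ± 1.3, 15.4% ± 0.42 and 27.6% ± 0.35 (SD, n = 2). The last of these is above the 20.4% and 20.98% of the rest of the arm. Nearer the centromere, dense islands lay from 800 to 900 kb, at 38.2% and 29.0%, and from 1300 to 1400 kb, at 44.4% and 52.2%. They were set off by steps such as that from 1500 to 1600 kb, at 1.30% and 0%. The shared member nearest the end ran from 22957796 to 22962732, 48.8 kb away, with percentiles of 34.6 and 65.1 in the replicates. The longest was 25.3 kb, from 21152870 to 21178172, number 21 by length in the whole-series list, where replicate 1 had 5 clusters and replicate 2 had 1. The highest score was that of the member from 21050348 to 21053536, at percentiles 98.8 and 95.8.

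On 3R dense enrichment reached to about 100 kb from the end of the assembled sequence. The innermost 100 kb itself was covered at 19.2% and 24.4% in replicates 1 and 2, near the 21.4% and 21.3% of the rest of the arm. The innermost 500 kb was covered at 33.6% ± 0.14, the next at 18.4% ± 0.071, the third at 41.4% ± 5.1 and the outermost at 16.6% ± 0.78 (SD, n = 2). From 100 to 300 kb the steps were covered at 46.7% and 65.3% in replicate 1 and 39.0% and 66.4% in replicate 2. A second dense island lay from 1300 to 1500 kb, at 58.4% and 71.0% in replicate 1 and 49.8% and 52.5% in replicate 2. The densest step anywhere in the rest of 3R reached 73.3% in replicate 1 and 69.7% in replicate 2. The step from 200 to 300 kb came near that in replicate 2, and the step from 1400 to 1500 kb did so in replicate 1 but not in replicate 2.

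The 3R window also held thinly covered steps. From 1700 to 2000 kb the steps had 2.94%, 3.91% and 2.95% covered in replicate 1 and 2.65%, 6.11% and 4.14% in replicate 2. Of these, the value of 6.11% is not under the 5% that marks a nearly empty step. The step from 800 to 900 kb had 2.01% and 0%. The shared member nearest the end ran from 12210 to 14420, and it was among the weaker ones, at percentiles 15.6 and 29.4. The longest was 23.5 kb, from 1473062 to 1496552, given as 2 clusters in replicate 1 and 5 in replicate 2. The highest score was that of the member from 1192628 to 1195272, at percentiles 97.1 and 98.8. The scaffold named 3RHet, which holds heterochromatin assigned to this arm, was covered at 3.41% ± 2.0 (SD, n = 2), far below the 33.6% of the innermost 500 kb of 3R. The other scaffolds of this kind were covered at 4.79% ± 1.0 for 2LHet, 2.94% ± 1.2 for 2RHet, 3.54% ± 1.4 for 3LHet and 11.1% ± 0.79 for XHet.

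Replicate sharing was lower in the windows of 3L and 2R than in the rest of those arms, and differed little elsewhere. A cluster was called shared if it had at least 1 bp in common with a cluster of the other replicate. Over all members, 375 of 507 (74.0%, 95% Wilson interval 70.0 to 77.6%) were shared in replicate 1 and 355 of 420 (84.5%, 80.8 to 87.7%) in replicate 2. For the whole lists these shares were 77.4% and 86.1%. On 3L, 35 of 68 members of replicate 1 were shared (51.5%, 39.8 to 62.9%), against 81.2% (79.0 to 83.1%) in the rest of the arm. In replicate 2 it was 36 of 49 (73.5%, 59.7 to 83.8%), against 86.1% (84.2 to 87.9%). The intervals of window and rest did not overlap in either replicate on 3L. Such an interval holds counting error alone, and clusters that lie side by side need not be independent.

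On 2R, 72 of 97 members of replicate 1 (74.2%, 64.7 to 81.9%) and 65 of 83 of replicate 2 (78.3%, 68.3 to 85.8%) were shared, against 84.6% (82.6 to 86.5%) and 86.7% (84.7 to 88.4%) in the rest of 2R. The intervals did not overlap in replicate 1 and overlapped in replicate 2. On 2L the shares were 79.4% and 87.5% in the window, against 84.9% and 84.8%. On 3R they were 85.5% and 85.2%, against 84.3% and 84.9%. On X the window had 65.6% shared in replicate 1 and 95.5% in replicate 2, against 65.4% and 92.9%. Windows and rest of the arm overlapped in their intervals on these 3 arms, which does not show that they are alike. Averaged over replicates, the difference over the 5 arms was −4.24 ± 2.8 percentage points (SD, n = 2). It turned to 1.89 points when a reciprocal overlap of 50% was required, so its direction rests on how sharing is defined.

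**Figure D4:**
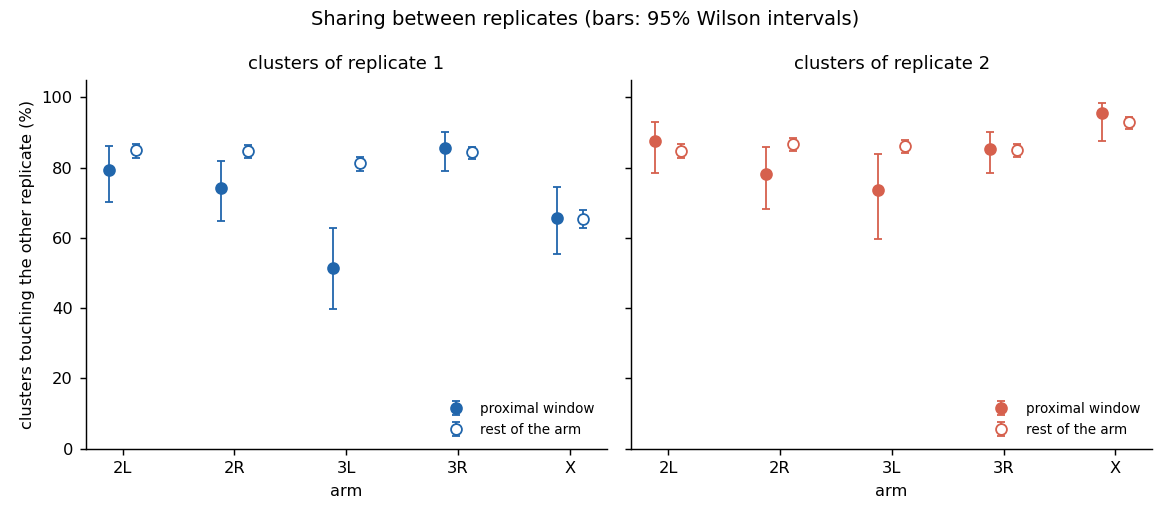
The share of clusters that touch a cluster of the other replicate (y axis, %) is given for the proximal window (filled) and the rest of the arm (open) on each arm (x axis), with 1 panel per replicate and 95% Wilson intervals as bars. The 3L window of replicate 1 is the lowest point, at 51.5%.

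In blocks of 500 kb, sharing on 3L was lowest in the innermost block. There, 2 of 14 clusters of replicate 1 were shared (14.3%, 4.01 to 39.9%) and 3 of 7 of replicate 2 (42.9%, 15.8 to 75%). All of these shared clusters lay in the innermost 100 kb, where 2 of 4 and 3 of 4 were shared. The very end was thus not the part with the least sharing. From 1500 to 2000 kb, 21 of 32 (65.6%) and 21 of 24 (87.5%) were shared. Over the 4 arms without 3R, a grouping made after the values were seen, sharing in replicate 1 was 48.3% (36.2 to 60.7%) of 60 clusters in the innermost 500 kb, and 78.4%, 64.9% and 77.4% in the next 3 blocks outwards. In replicate 2 it was 76.3% of 38 clusters, followed by 84.7%, 77.9% and 88.2%. Covered share over those 4 arms was 7.97%, 11.2%, 13.7% and 19.3% from the innermost block outwards in replicate 1 and 5.71%, 10.8%, 11.7% and 18.1% in replicate 2. From 1000 to 1500 kb, sharing was lower than from 500 to 1000 kb in both replicates, and covered share was higher. Whether covered share has a part in the sharing was not tested. With 3R included, sharing was 63.8%, 80.6%, 74.0% and 78.4% in replicate 1 and 81.1%, 86.0%, 82.8% and 84.7% in replicate 2, so the innermost block was still the lowest but by less. Covered share was then 13.1%, 12.6%, 19.9% and 18.7% in replicate 1 and 11.3%, 12.3%, 16.9% and 17.9% in replicate 2, with no lower value at the innermost block in replicate 1.

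Unshared members were short. For the rest of the arms, length by sharing was not taken from the replicate lists. The whole-series list had a like difference in the windows and in the rest. Whether length has a part in the sharing was not tested. In the rest of the arms, whole-series clusters that touched replicate 1 only had a median length of 1786 bp. Those that touched both replicates had one of 3755 bp. In the windows these medians were 1611 and 4059 bp. In replicate 1 the 33 unshared members on 3L had a median length of 1550 bp, next to 3413 bp for the 35 shared ones. Over the 5 arms it was 1733.5 bp for 132 unshared members and 3152 bp for 375 shared ones in replicate 1, and 1603 bp for 65 and 2835 bp for 355 in replicate 2. In base pairs the replicates overlapped in the 3L window with a Jaccard index, the common base pairs over those in either list, of 0.465, against 0.608 in the rest of the arm. It was 0.556 against 0.631 on 2R, 0.658 against 0.624 on 2L, 0.632 against 0.627 on 3R and 0.544 against 0.483 on X. Arms 3L and 2R thus stood below the rest of their arm in this measure too.

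Over the 5 arms together, the average score that the authors assigned differed between windows and rest by less than the replicate spread. The share of members with the highest scores was lower in the windows of 2L, 2R and 3R in both replicates, but not on X. It rests on few members per arm. Each score was turned into its percentile within its own list, since no source used here gives its unit. Members averaged percentile 51.4 in replicate 1 and 49.3 in replicate 2, against 49.0 and 49.9 in the rest of the arms. That difference of 0.914 ± 2.1 points (SD, n = 2) is within the spread between replicates. X was the arm on which both replicates moved the same way, with 62.8 and 54.2 in the window against 56.9 and 49.9 in the rest, or 5.05 ± 1.2 points higher. On the other 4 arms the 2 replicates differed in sign, with values from −3.11 to 3.75 points. Of all members, 8.09% in replicate 1 and 5.71% in replicate 2 stood in the top 10% of their list by score, against 9.26% and 9.97% in the rest of the arms. In the whole-series list it was 9.27% against 9.54%, nearly the same. No interval was computed for these shares. The share was lower in the window in both replicates on 2L (7.22% and 2.50%, against 11.6% and 11.1%), 2R (6.19% and 4.82%, against 8.41% and 11.2%) and 3R (5.92% and 7.04%, against 9.48% and 10.2%). On X it was higher in both, at 12.9% and 9.09% against 8.45% and 7.41%. On 3L it was 10.3% and 4.08%, against 8.64% and 9.44%, so the replicates differed in direction. The members behind these window shares were 7 and 2 on 2L, 6 and 4 on 2R, 9 and 10 on 3R, 12 and 6 on X and 7 and 2 on 3L. A few clusters would therefore move the shares of single arms.

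Towards the centromere, neither length nor score changed in a way that all arms shared. The rho of cluster length with distance from the end, across single members, was 0.16 and 0.18 on 3L for replicates 1 and 2, and −0.13 and −0.21 on X. The other arms gave 0.12 and −0.10 on 2L, 0.14 and 0.06 on 2R and 0.10 and −0.02 on 3R. For the score, rho was −0.16 and −0.30 on X across 93 and 66 members, so that scores there tended to be higher nearer the centromere. It was −0.21 and −0.04 on 2R, −0.05 and −0.02 on 2L, −0.09 and 0.19 on 3L and 0.07 and −0.00 on 3R. Between the replicates, scores of matched pairs of clusters, 1 from each list, ranked alike with a rho of 0.61 over 63 pairs on 2L, 0.61 over 33 on 3L, 0.52 over 107 on 3R and 0.31 over 58 on X. On 2R it was 0.18 over 62 pairs, next to 0.53 over 985 pairs in the rest of that arm. In the rest of the other arms it was 0.59 on 2L, 0.53 on 3L, 0.54 on 3R and 0.34 on X. The low value of the X window was thus near that of the rest of X.

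Length and score went together less closely in the windows than elsewhere in replicate 1. There the rho between length and score across members was 0.33 on 3L, 0.46 on X, 0.34 on 2R, 0.36 on 2L and 0.47 on 3R, against 0.63, 0.60, 0.60, 0.61 and 0.59 in the rest of these arms. In replicate 2 it was 0.60, 0.72, 0.71, 0.73 and 0.70 in the windows, against 0.72, 0.69, 0.70, 0.71 and 0.73. The weaker tie between length and score was thus seen on each of the 5 arms in replicate 1 and on 3L in replicate 2, with a small difference on 3R.

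The whole-series list was sorted by which replicate lists held a cluster at the same place. Of its 507 members, 306 (60.4%, 56.0 to 64.5%) touched clusters of both replicates, against 67.0% (65.9 to 68.1%) in the rest of the arms. For the whole of that list the share was 64.8%. A further 93 (18.3%) touched replicate 1 only and 43 (8.48%) replicate 2 only, close to the 16.3% and 7.5% in the rest. The other 65 (12.8%, 10.2 to 16.0%) touched neither, against 9.19% (8.53 to 9.88%) with neither in the rest. On 3L, 32 of 70 members (45.7%, 34.6 to 57.3%) touched both and 16 (22.9%, 14.6 to 34%) neither, against 67.0% and 10.6% in the rest of 3L.

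Members found in neither replicate were short but scored higher than their counterparts elsewhere. Their median length was 1137 bp, against 1213 bp in the rest of the arms, while their median score percentile was 35.8, against 22.5. It was higher in the window on each arm, at 41.9 against 19.8 on 3L, 36.5 against 20.1 on 2L, 33.0 against 17.9 on 3R, 28.9 against 18.5 on 2R and 37.1 against 34.4 on X. These groups held 10 to 16 members per arm. For members that touched replicate 1 only, the percentile was 39.3 against 15.3 on 3L, 33.8 against 17.2 on 2L, 25.7 against 19.1 on 2R, 18.3 against 15.4 on 3R and, lower in the window, 29.2 against 32.2 on X. For members that touched replicate 2 only, it was higher in the window on each arm. The values were 19.3 against 12.6 on 3L, 17.9 against 12.2 on 2L, 16.9 against 12.2 on 2R, 17.5 against 12 on 3R and 36.9 against 30 on X. These last groups held 2 to 15 members per arm. The higher percentile was thus not particular to members found in neither replicate. Members held by both replicates were close to the rest, at 67.0 against 65.2.

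**Figure D5:**
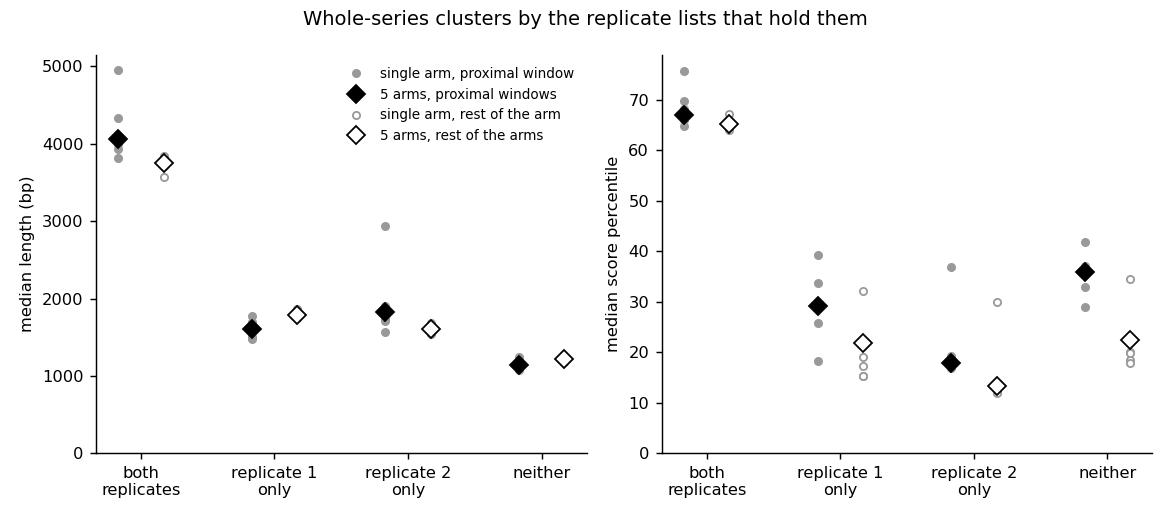
Whole-series clusters are grouped by the replicate lists that hold a cluster at the same place (x axis), with the median length in bp on the left and the median score percentile on the right (y axes), for the proximal windows (filled) and the rest of the arms (open), as single arms (grey circles) and the 5 arms together (diamonds). Clusters found in neither replicate have a median percentile of 35.8 in the windows and 22.5 in the rest.

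The windows end at fixed coordinates, and no cluster of any list crossed one. In the whole-series list the last cluster inside on 2L ran from 21050348 to 21053536 (percentile 98.6) and the first outside from 20921584 to 20927434 (57.5). On 2R these were 1989106 to 1993160 (23.0) and 2018048 to 2022644 (94.3). On 3L they were 22563594 to 22566604 (82.2) and 22462616 to 22464918 (63.9). The limits thus fell in gaps between clusters, and percentiles on either side of them varied widely. On 3R the pair was 1995420 to 1998324 (95.2) and 2012138 to 2014288 (48.5), and on X it was 20041042 to 20043318 (81.1) and 19955842 to 19957542 (9.73).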

How the data were processed

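ChIP DNA and input DNA were sequenced, and the submitters' processing notes name Bowtie 0.12.7, an aligner. The authors deposited 3 lists of regions of significant enrichment, 1 per ChIP replicate and 1 for the whole series, with a start, an end and a score assigned by the authors. Per the file headers, coordinates are FlyBase release 5. The caller, its thresholds, the unit of the score, read depth and how the authors made the whole-series list are not given in the sources used here, so the precision of single values is unknown. Input samples were not analysed on their own.

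Members were counted if wholly inside the window. Clusters past an arm end were trimmed (1 each in replicate 2 and the whole-series list, both on 3L, kept as members). Steps of 100 kb and blocks of 500 kb ran from the centromeric end, and a cluster belonged to the step with its midpoint. Shares carry 95% Wilson intervals. Named members are, per arm, the whole-series members touching both replicates that were nearest the end, longest and highest in score. Members and measures were chosen with earlier results of these data known. Alternatives were other step sizes, overlaps, score and length filters, windows, arms and lists. The gene table used here is of Release 6, so no genes were named and no sequences read. Code was tested on simulated data. Tables were made with pandas 2.3.3 and numpy 2.4.6 in Python 3.11.15, intervals with scipy 1.17.1 and plots with matplotlib 3.10.9.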

Additional observations from a re-analysis of the deposited data

Results flagged for a closer look

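The proximal window of 3R was covered at 1.29 fold the rest of its arm, above 1 in both replicates, while the windows of the other 4 arms were below 1 in both. It is listed because 3R differed in direction from the other arms, while the 2 replicates moved the same way on each arm. The difference between arms was not tested, and all arms come from the same 2 libraries.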

How the results depend on the processing

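Under 12 other settings, 62 values were computed for 14 results. Of these, 36 moved by less than the SD between replicates, 25 moved by more and 1 changed direction, the sharing over the 5 arms, at 1.89 points under a reciprocal overlap of 50%. No other called direction turned. The fold of covered share in the inner 1 Mb was 0.185 on 3L, 0.474 on X, 0.485 on 2R, 0.523 on 2L and 1.22 on 3R. Against the rest of 5 arms it was 0.736 on 2R and 0.479 on X. Without clusters over 10 kb it was 0.626 on 2R, 1.21 on 3R and 0.612 on X. In the whole-series list it was 0.654 on 2R, and above the median score 0.635 on X. The rho with distance was 0.33 on 3L, 0.37 on 2L, 0.19 on 2R and −0.20 on 3R in 50 kb steps, and 0.52, 0.72 and −0.27 on 2R, 3L and 3R in 200 kb steps. As clusters per step it was 0.30 on 2R and 0.48 on 3L, and in the whole-series list 0.36 on 2R. The ratio of median length was 0.966 above the median score and 1.04 against telomeric windows, where the score percentile differed by 3.10 points. Leaving out either replicate is not counted here: with 2 values it stays within the SD by construction and says nothing of stability. The score difference had opposite signs in the replicates, from −0.574 to 2.40 points. No paired analysis was possible because no result here comes from a test across samples; window and rest were compared within each replicate. Read depth and the share of these windows that can be mapped uniquely are not known here.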
